A study of Mus musculus with 4 samples.

Results

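The 10 mouse genes described here are Dusp6 and 9 further genes that dampen or read out signalling through the ERK kinases. The others are the phosphatases Dusp4 and Dusp5, the Sprouty genes Spry1, Spry2 and Spry4, the Sprouty-related genes Spred1 and Spred2, and the transcription factors Etv4 and Etv5. A probe set, the group of array probes that measures 1 transcript, was taken when its annotation named exactly 1 of these symbols. The 10 genes had 28 probe sets, of 45037 on the array, and were 10 of 18193 named genes. Dusp6 was picked because it was among the tightest genes higher in one of the bone areas compared, so the members were chosen by its difference between the areas, which is a description, with no test. The same contrast is used for the other 9 genes, and their values are given in the same way.

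The cells came from the bone marrow of adult NOD/SCID mice (strain NOD.CB17-Prkdc scid/J), which the design text calls recipients and whose scid mutation blocks the making of mature B and T cells. Cells carrying the integrin CD51 and lacking CD45, CD31, Sca1 and the lineage antigens of blood cells were sorted, which the study calls osteoblasts. They were taken from the trabecular bone area (2 arrays) or from the long bone area (2 arrays). All mice were of the same strain and all cells passed the same sort. No mice, pooling or sex are named for the replicates, and no allele or agent differed between the groups, so every spread below is that between these samples. The question of the comparison is how cells of this sort differ between both places in the marrow. Because the arrays read bulk RNA, fewer cells of a type and less RNA per cell cannot be told apart.

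ERK is the last kinase of a cascade that carries signals from receptor tyrosine kinases, such as those for fibroblast growth factors, through Ras to the nucleus. Active ERK switches on its own brakes: Dusp proteins remove the phosphates from ERK, and Sprouty and Spred proteins block the cascade at the level of Ras and Raf. In the skeleton this circuit acts in cartilage and in bone-forming cells, and the levels of these brakes are widely used as a readout of ERK signalling.

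Each probe set's deposited values, taken as log2, are given against its own median over the 4 arrays. They hold differences between arrays and no levels. A value of 1 therefore means 2-fold above the 4-array median of that probe set. Long bone array 2 stood apart from the others: 2493 probe sets were 2-fold or more away from their median on it, against 383 to 848 on the other arrays. The Gapdh control, which reads RNA integrity, had a 5' end value minus 3' end value of -1.16 there and -0.09 to 0.31 elsewhere. The 9 hybridisation controls, spiked into every sample, were all lower on both trabecular arrays, with a median log2 difference of -0.39. Of the sorted-cell markers, Itgav, which encodes CD51, differed by -0.13 (log2, trabecular minus long bone area), Pecam1, which encodes CD31, by -0.02, and Ptprc, which encodes CD45, by -0.34. Whether these markers were present could not be read from centred values. With 2 arrays per area, the number of arrays limits the precision of every value.

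Coarse levels could be read from the deposited numbers themselves, since the rounding step of a stored number grows with its size before centring. By this reading 8 of the 28 probe sets lay at a log2 level of 8 and above, 18 at 4 to 8 and 2 below 4. The bright ones were those of Dusp6 and Dusp5, both of Spry2, 1 of 8 for Spred1, 2 of 5 for Spred2 and 1 of 3 for Etv5. No probe set of Dusp4, Spry1, Spry4 or Etv4 was read at 8 and above. The band goes with the sign of the difference in the whole table: 65.1% of the 14698 probe sets at 8 and above were higher in the trabecular area (median 0.17), against 40.5% of the 27750 at 4 to 8 (median -0.06). Of the 18 member probe sets at 4 to 8, 4 were higher and 14 lower, and of the 8 bright ones 3 were higher and 5 lower.

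Dusp6 encodes the phosphatase that holds ERK inactive in the cytoplasm. Its log2 value was 1.43 and 0.83 on trabecular arrays 1 and 2, against -0.83 and -1.01 on long bone arrays 1 and 2. Both trabecular arrays lay above both long bone arrays, and the gap between the areas was wider than that within either area. The trabecular mean was 1.13 ± 0.43 and the long bone mean -0.92 ± 0.13 (SD, n = 2 for each mean), a 4.12-fold difference. The log2 difference was 2.04 (95% interval of the limma fit 1.41 to 2.68), and 3 of the 18193 genes had a larger one. Because Dusp6 was chosen for this difference, the interval and the rank describe its values and are not a test. Leaving out each array in turn gave differences of 1.74 to 2.35. Dusp6 has 1 probe set on this array, so no further probe set of the gene checks this value.

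**Figure D1:**
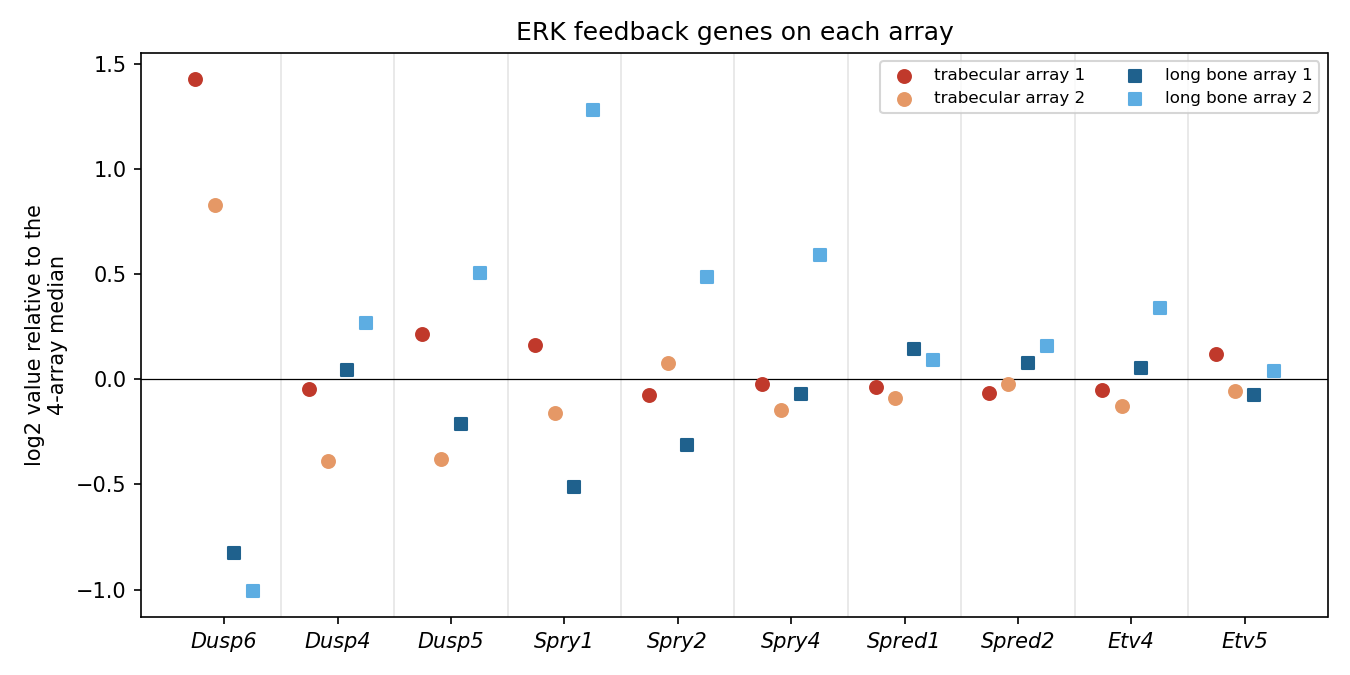
Log2 value of each ERK feedback gene (vertical axis, relative to the 4-array median, mean of the probe sets of the gene) on each of the 4 arrays; circles are trabecular arrays and squares long bone arrays. Dusp6 lies at 0.83 and 1.43 on the trabecular arrays and near -1 on both long bone arrays, while Spry1, Spry2 and Spry4 are highest on long bone array 2.

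The other phosphatases did not share the pattern of Dusp6. Dusp4, a nuclear phosphatase that acts on ERK and on other MAP kinases, had log2 values of -0.04 and -0.39 on trabecular arrays 1 and 2, against 0.04 and 0.27 on long bone arrays 1 and 2. These values did not overlap between the areas, but the gap between the nearest arrays was smaller than the distance between the trabecular arrays. The log2 difference was -0.37 (95% interval -0.85 to 0.10), -0.55 without trabecular array 1 and -0.20 without trabecular array 2. Dusp5, a nuclear phosphatase that acts on ERK, was at 0.21 and -0.38 on the trabecular arrays, against -0.21 and 0.51 on the long bone arrays. Here the areas overlapped, and the difference of -0.23 (-1.11 to 0.66) was smaller than the spread within either area. Without long bone array 2 the Dusp5 difference turned to 0.13, and without trabecular array 2 to 0.07.

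The Sprouty genes, which encode inhibitors induced by growth factors, followed single arrays rather than areas. Spry1 was at 0.16 and -0.16 on trabecular arrays 1 and 2, against -0.51 and 1.28 on long bone arrays 1 and 2. Both trabecular arrays thus lay between the long bone arrays, which stood 1.79 apart. Spry2 showed the same order of areas, with -0.08 and 0.08 on the trabecular arrays, against -0.31 and 0.48 on the long bone arrays. Spry4 was at -0.02 and -0.15 on the trabecular arrays, against -0.07 and 0.59 on the long bone arrays. Long bone array 2 was the highest array for all 3 genes, as it was for 35.2% of all genes. This was not particular to the Sprouty genes, since 7 of the 10 members were highest on that array. The step from long bone array 1 to long bone array 2 was exceeded by 0.473% of genes for Spry1, 3.03% for Spry2 and 4.57% for Spry4. For the phosphatase gene Dusp5 it was exceeded by 3.76%.

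The log2 difference between the areas was -0.39 (95% interval -2.03 to 1.26) for Spry1, -0.09 (-0.87 to 0.69) for Spry2 and -0.35 (-1.02 to 0.33) for Spry4. All 3 genes overlapped between the areas. Without long bone array 2 the differences were 0.51 for Spry1, 0.31 for Spry2 and -0.02 for Spry4, and without long bone array 1 they were -1.28, -0.48 and -0.68 in the same order. Spry2 also turned to 0.01 after quantile normalization. Several marker lists also rose on long bone array 2. The median of 7 reticular stroma markers, which include Cxcl12 and Lepr, was 0.09 and -0.58 on the trabecular arrays, against -0.07 and 1.63 on the long bone arrays. All 7 were highest on long bone array 2. For 5 megakaryocyte markers the median was -0.01 and 0.01, against -0.09 and 1.62. The median step from long bone array 1 to long bone array 2 was 0.73 for B cell markers and 0.70 for smooth muscle and pericyte markers. It was -0.08 for neutrophil and -0.28 for chondrocyte markers. The part of any of these cells in the Sprouty values was not tested.

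The Spred genes, which encode membrane proteins that bring the Ras inhibitor neurofibromin to Ras, had small differences with little spread. Spred1 was at -0.04 and -0.09 on trabecular arrays 1 and 2, against 0.15 and 0.09 on long bone arrays 1 and 2. Spred2 was at -0.07 and -0.02 on the trabecular arrays, against 0.08 and 0.16 on the long bone arrays. Neither gene overlapped between the areas as a mean of its probe sets. The log2 difference was -0.18 for Spred1 (95% interval -0.50 to 0.13) and -0.16 for Spred2 (-0.48 to 0.16). Both were below 0 with any 1 array left out, which follows from the areas not overlapping.

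The single probe sets of the Spred genes did not all go that way. For Spred1, 7 of 8 probe sets were lower in the trabecular area, 5 of them with no overlap, and 1 was higher by 0.08. Probe set 1423161_s_at of Spred1 owed its difference of -0.31 to long bone array 1, where it was at 0.63, while the other 3 arrays lay between -0.08 and 0.05. For Spred2, 4 of 5 probe sets were lower. The largest of these differences was -0.60 for 1441802_at, read at 4 to 8, while the bright probe set 1434403_at of Spred2 differed by 0.31, with both trabecular arrays (0.08 and 0.29) above both long bone arrays (-0.16 and -0.08). Over bright probe sets alone the difference of Spred2 was 0.01 and that of Spred1 -0.33.

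Etv4 and Etv5 encode ETS transcription factors of the PEA3 group, whose genes are switched on by FGF signalling in many tissues. Etv4 was at -0.05 and -0.13 on trabecular arrays 1 and 2, against 0.05 and 0.34 on long bone arrays 1 and 2. The areas did not overlap, the distance to the nearest array being small, and both probe sets of Etv4 went the same way (-0.26 and -0.31). The difference was -0.29 (95% interval -0.69 to 0.12), and it was -0.14 without long bone array 2. Etv5 was at 0.12 and -0.06 on the trabecular arrays, against -0.07 and 0.04 on the long bone arrays. These values overlapped, with a difference of 0.05 (-0.31 to 0.41) that turned to -0.04 without trabecular array 1 and to -0.01 without long bone array 1.

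**Figure D2:**
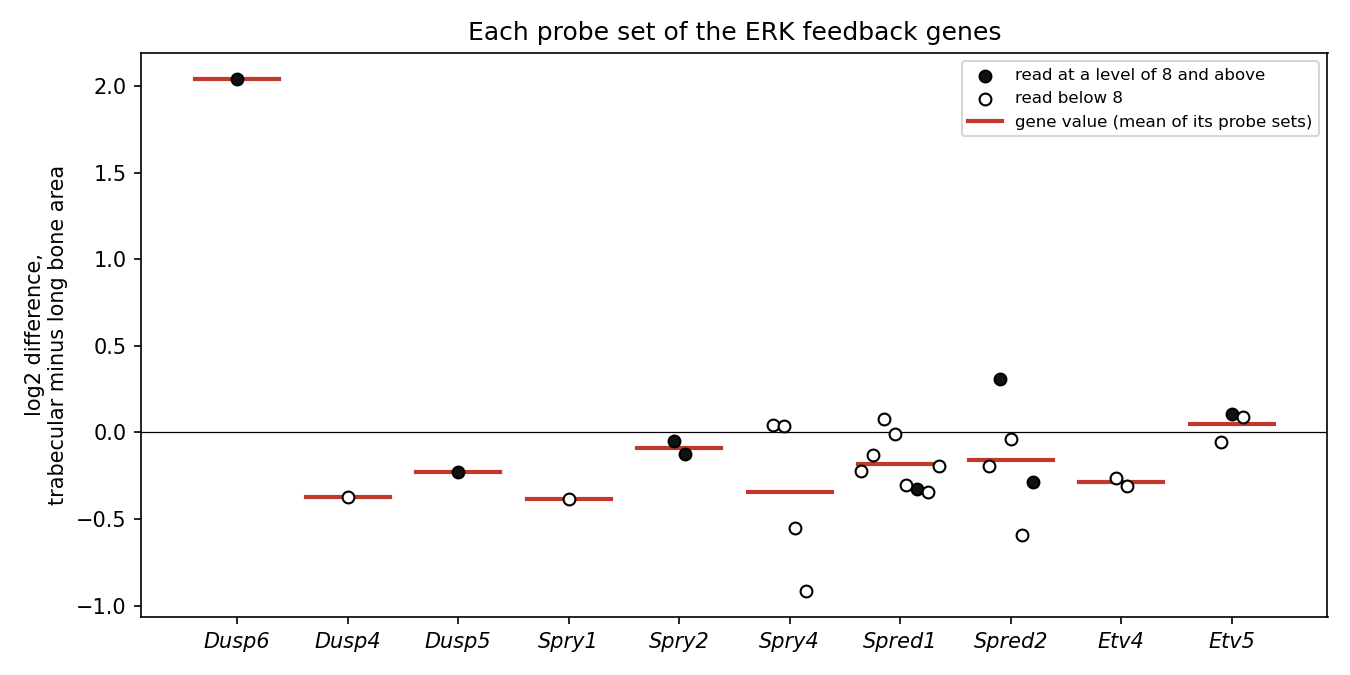
Log2 difference, trabecular minus long bone area, of each of the 28 probe sets (circles, filled where read at a level of 8 and above) and of the gene as their mean (red line). Dusp6 lies at 2.04 and the other 27 probe sets between -0.92 and 0.31, and Spry4, Spred1, Spred2 and Etv5 have probe sets on both sides of 0.

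Of 6 genes with several probe sets, 4 had probe sets on both sides of 0. Those of Spry4 were the farthest apart. The probe sets 1422021_at and 1422020_at of Spry4 differed by 0.05 and 0.04, whereas 1440867_at and 1445669_at of the same gene differed by -0.55 and -0.92. The last was read below 4 and stood at 1.59 on long bone array 2, against -0.07 and -0.11 on the trabecular arrays and 0.07 on long bone array 1. The gene value of Spry4 is therefore a mean over probe sets that disagree, and with their median in its place the difference was -0.21.

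In order of difference, the 10 genes ran from Spry1 (-0.39) through Dusp4 (-0.37), Spry4 (-0.35), Etv4 (-0.29), Dusp5 (-0.23), Spred1 (-0.18), Spred2 (-0.16) and Spry2 (-0.09) to Etv5 (0.05) and Dusp6 (2.04). The 95% intervals of the first 9 overlap one another and include 0. Dusp6 was chosen for its difference, so its interval is not set against theirs. The median over the 10 genes was -0.21 and that over the 9 without Dusp6 was -0.23, beside 0.03 over all genes. Of the 10, 2 were higher and 8 lower, where 54.6% of all genes were higher and 45.4% lower. Areas did not overlap for 5 of the 10 genes, beside 51.4% of all genes: 1 higher, Dusp6 (29.9% of all genes), and 4 lower (21.4%). Among probe sets 16 of 28 did not overlap, beside 52.1% of all: 4 higher (25.9% of all) and 12 lower (26.2%).

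The number of genes on each side of 0 changed with single arrays of both areas, most with long bone array 2 left out. With long bone array 2 left out, 5 of the 10 genes were higher and the median was 0.05. With long bone array 1 left out, 1 was higher and the median was -0.46. With trabecular array 1 left out 1 was higher, and with trabecular array 2 left out 3 were higher. Spry4 kept its sign with any 1 array left out, at -0.02 in the smallest case. Dusp6, Dusp4, Spred1, Spred2 and Etv4 kept theirs as well. For them this was fixed beforehand, since their arrays did not overlap between the areas.

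None of the other 9 genes passed the test across the whole table, and Dusp6, which this contrast chose, is left out of the counts that follow. With limma and Benjamini-Hochberg adjustment, 0 of the 9 genes and 0 of their 27 probe sets had an adjusted p under 0.05, beside 0% of all genes and 0% of all probe sets. At an unadjusted p under 0.05 there were 0 of the 9 genes, beside 15.5% of all genes, and 2 of the 27 probe sets, beside 16.3% of all. The 2 were 1440867_at of Spry4 and 1441802_at of Spred2. With a trend in the prior variance 40 genes were called over the table and with ordinary t statistics 1, Mmadhc, and no member was among them. Once long bone array 1 was dropped, the fit had to assume that the remaining long bone array varies like the trabecular pair; 8.81% of all genes were then called, with Spry1 the 1 among the 9. An exact permutation test of 2 against 2 arrays could not go below a two-sided p of 0.333.

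**Figure D3:**
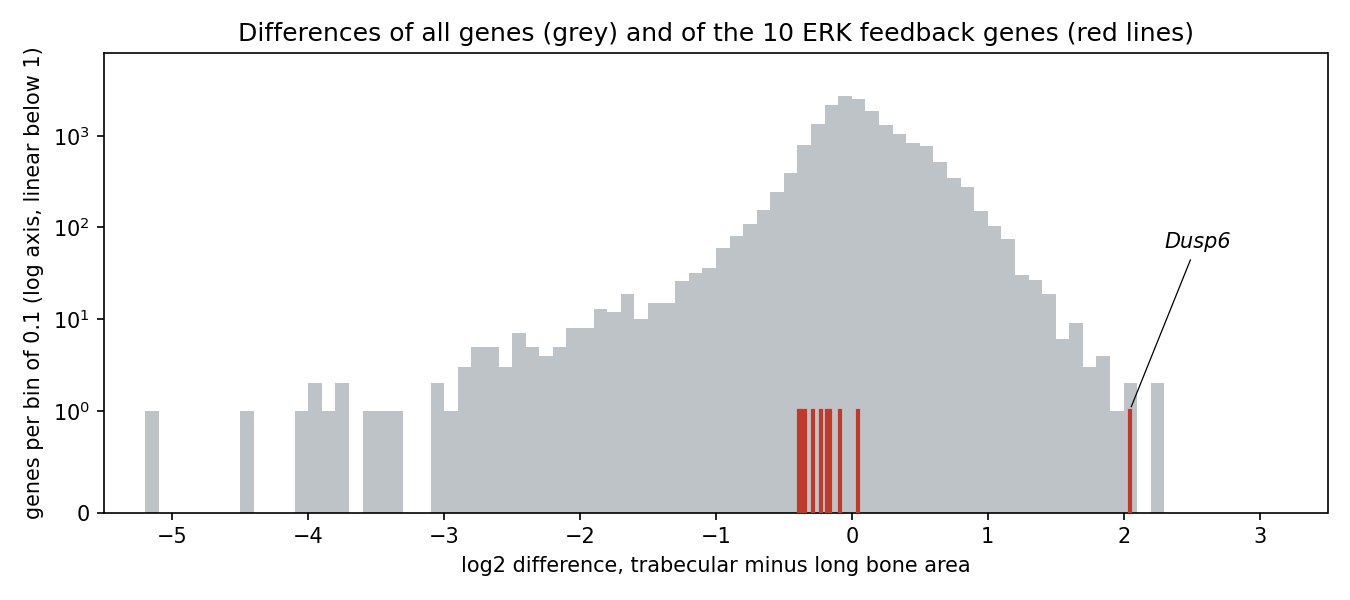
Number of genes (vertical log axis, linear below 1) by log2 difference, trabecular minus long bone area (horizontal axis, bins of 0.1), with the 10 ERK feedback genes as red lines. The other 9 lie between -0.39 and 0.05, inside the bulk of the genes, and Dusp6 lies at 2.04 at the right edge.

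**Figure D4:**
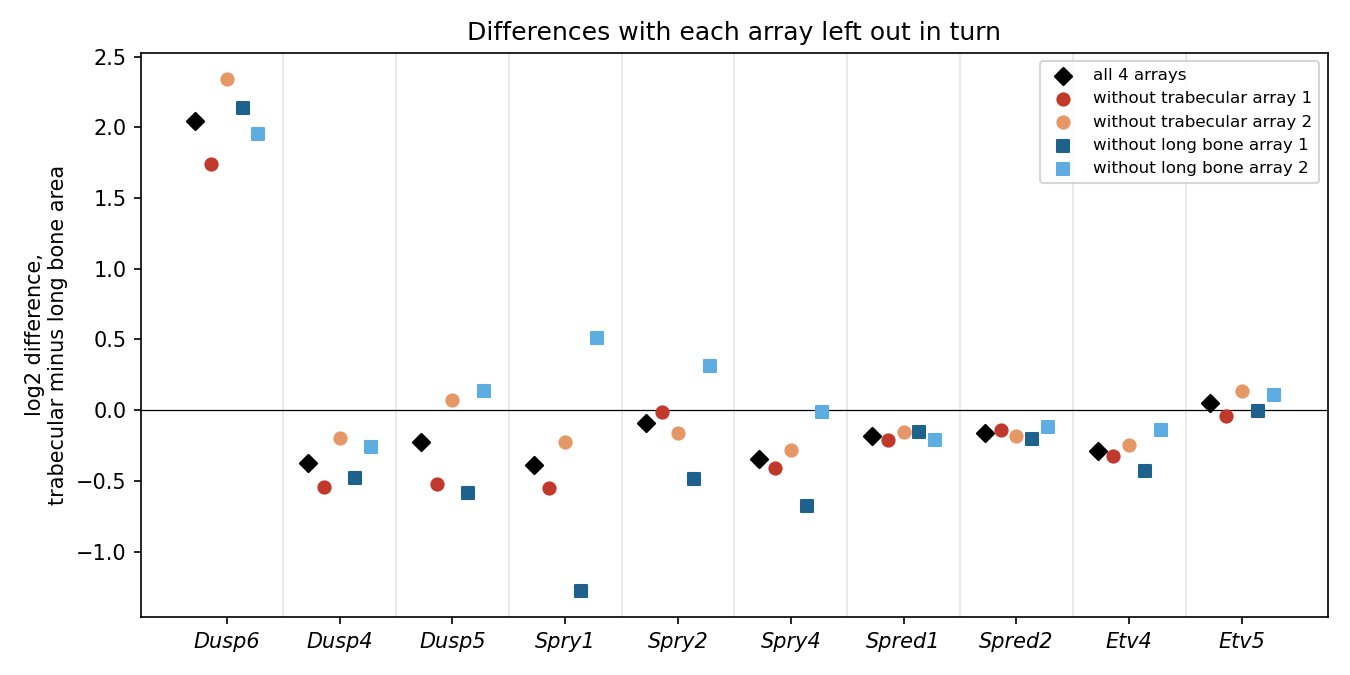
Log2 difference, trabecular minus long bone area, of each gene (vertical axis) with all 4 arrays (diamonds) and with each array left out in turn. Dusp6 stays between 1.74 and 2.35, while Spry1 runs from -1.28 to 0.51.

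The promoters of both phosphatases with bright probe sets and of the Sprouty genes with a window in the RefSeq table are shown. All are counted as ERK-induced. The part of these sequences in the array values was not tested. Each window holds 250 bases before and 50 after the start of the gene (GRCm38.p6, RefSeq), and 7 of the 10 genes had a window, Etv5 having 2. Searched on both strands were CCGGAA, a core of sites for ETS factors, TGACGT, the core of the cAMP response element, TGANTCA, the AP-1 site, and the CArG box bound by serum response factor. Capitals mark the matches.
Dusp6, chr10:99262981-99263280, plus strand: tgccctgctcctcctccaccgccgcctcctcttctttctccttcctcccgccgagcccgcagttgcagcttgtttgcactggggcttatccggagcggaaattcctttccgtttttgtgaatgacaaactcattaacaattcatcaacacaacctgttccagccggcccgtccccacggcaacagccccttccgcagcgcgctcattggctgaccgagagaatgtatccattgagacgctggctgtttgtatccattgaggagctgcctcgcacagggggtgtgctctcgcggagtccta
Dusp5, chr19:53528895-53529194, plus strand: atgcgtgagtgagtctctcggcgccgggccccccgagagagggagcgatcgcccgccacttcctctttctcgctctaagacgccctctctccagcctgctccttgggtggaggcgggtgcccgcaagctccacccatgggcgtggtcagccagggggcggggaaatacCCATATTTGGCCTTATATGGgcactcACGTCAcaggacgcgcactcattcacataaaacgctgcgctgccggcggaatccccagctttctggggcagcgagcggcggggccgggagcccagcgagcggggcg
Spry1, chr3:37639697-37639996, plus strand: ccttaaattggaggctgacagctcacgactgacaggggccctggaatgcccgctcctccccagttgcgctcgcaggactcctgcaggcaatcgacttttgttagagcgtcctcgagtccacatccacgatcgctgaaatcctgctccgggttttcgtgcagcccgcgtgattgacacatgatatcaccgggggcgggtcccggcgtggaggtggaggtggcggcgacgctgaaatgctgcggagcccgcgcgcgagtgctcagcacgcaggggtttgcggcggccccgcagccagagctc
Spry2, chr14:105896770-105897069, minus strand: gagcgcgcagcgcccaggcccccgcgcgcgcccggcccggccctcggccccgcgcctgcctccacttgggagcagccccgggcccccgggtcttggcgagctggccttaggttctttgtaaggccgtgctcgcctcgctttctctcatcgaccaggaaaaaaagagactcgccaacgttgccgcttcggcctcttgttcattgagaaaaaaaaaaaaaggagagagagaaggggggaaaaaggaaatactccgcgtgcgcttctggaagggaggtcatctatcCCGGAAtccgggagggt

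The Dusp5 window held 2 CArG boxes side by side, beginning 82 and 72 bases before the start, and 1 cAMP response element core 56 bases before it on the opposite strand. No motifs overlapped. The Spry2 window held 1 ETS core, 33 bases after the start, and the Spred2 window 1 cAMP response element core. The letters searched were not found in the windows of Dusp6, Spry1, Spred1 and Etv5. Of all 32851 promoter windows, 1.63% held a CArG box, 14.9% the ETS core, 7.51% the cAMP response element core and 7.81% the AP-1 site. The GC content was 57.3% for Dusp6, 66.7% for Dusp5, 64.3% for Spry1 and 62.7% for Spry2, beside a median of 52.7% over all windows. A match describes these letters and not a bound site.

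Among other MAP kinase phosphatases, Dusp1 had the largest difference on the side of Dusp6. Dusp1, an immediate early phosphatase of the nucleus that acts mainly on p38 and JNK, was at 0.33 and 0.16 on the trabecular arrays, against -1.54 and -0.16 on the long bone arrays. Its difference of 1.09 was 0.40 without long bone array 1, the lowest of the 4, and 1.78 without long bone array 2. Ptprr, a tyrosine phosphatase of ERK, differed by 0.22, and Dusp8, Dusp22 and Dusp7 by -0.27, -0.18 and -0.11. Without trabecular array 2 the difference of Dusp22 was -0.03. Of 11 measured members of this list 3 were higher and 8 lower (median -0.11, near 0 with 5 higher without long bone array 2), and 0 passed the test in either direction.

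Further genes of ERK feedback and output went both ways. Of 17 measured, 5 were higher and 12 lower (median -0.24), and 0 were called. Areas did not overlap for 3 of the higher and 8 of the lower ones, 64.7% of the list, beside 51.4% of all genes. The lowest was Errfi1, an inhibitor of the EGF receptor, at -0.69 and -2.20 on the trabecular arrays, against 1.01 and 0.69 on the long bone arrays. Its difference of -2.30 opposed that of Dusp6 in sign and was of similar size with all arrays. The difference of Errfi1 was -3.05 without trabecular array 1 and -1.54 without trabecular array 2. Gem, a small GTPase, differed by -0.83 (-0.31 without long bone array 2) and Spsb1 by -0.71. On the other side, Rgs2, a regulator of G protein signalling, differed by 0.46 (0.20 without long bone array 2), and Spred3 and Spry3, the remaining members of both inhibitor families, by 0.41 and 0.24. Over probe sets read at 8 and above 8 of the 17 were measured, 3 higher and 5 lower (median -0.06).

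The immediate early genes, transcribed within minutes of ERK activation, were listed together with Srf, Elk1, Elk3 and Elk4, factors through which ERK acts. Several genes of the list spread widely between arrays of 1 area, whereas Srf and the Elk genes ranged over only 0.20 to 0.31 across all arrays. Of 22 measured, 15 were higher and 7 lower (median 0.21, -0.03 without long bone array 1), and 0 were called. Areas did not overlap for 7 of the higher and 1 of the lower ones, 36.4% of the list, beside 51.4% of all genes. Fosb, an AP-1 subunit, differed by 1.11 (0.68 without long bone array 1), Ier2 by 0.86 and Mcl1, a survival factor of the BCL2 family, by 0.80. Klf4, a zinc finger factor, differed by -1.41. Egr1, a zinc finger factor that is a standard early target of ERK and was singled out after its values were seen, was at 0.39 and -1.30 on the trabecular arrays, against -0.39 and 1.08 on the long bone arrays, so that its areas overlapped.

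The core components of the cascade carry the signal between receptor and ERK. Of 19 measured, 12 were higher and 7 lower (median 0.20), or 63.2% higher, beside 54.6% of all genes, and 0 were called. Areas did not overlap for 11 of the higher and 4 of the lower ones, 78.9% of the list, beside 51.4% of all genes. Nras, a Ras protein, differed by 0.80, Map2k1, a kinase that activates ERK, by 0.70 and the adaptor Grb2 by 0.58. Without long bone array 2 the differences of Nras, Map2k1 and Grb2 were 0.45, 0.30 and 0.34. The docking protein Gab1 differed by -0.43 (-0.21 without that array), and the scaffolds Ksr1 and Ksr2 by -0.23 and -0.18. Of these 19 genes 14 had a probe set read at 8 and above, the band whose probe sets were higher in 65.1% of cases over the whole table.

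Ligands and receptors act upstream of the cascade. Of 12 measured FGF ligands and receptors 1 was higher and 11 lower (median -0.39), and 0 were called. Areas did not overlap for 8 of the lower ones, 66.7% of the list, beside 51.4% of all genes. Over probe sets read at 8 and above 5 of these FGF genes were measured, 2 higher and 3 lower (median -0.04). Fgfrl1, a decoy-like receptor, differed by -0.60, and the ligands Fgf1 and Fgf18 by -0.44 and -0.43. Of 20 other receptor tyrosine kinases and their ligands 5 were higher and 15 lower (median -0.20), and 0 were called. Areas did not overlap for 1 of the higher and 7 of the lower ones, 40% of the list, beside 51.4% of all genes. Over probe sets read at 8 and above 8 of the 20 were measured, 4 higher and 4 lower (median -0.02). Pdgfra, a receptor of platelet-derived growth factor, differed by -0.96, the EGF receptor ligand Hbegf by -0.84 and Pdgfa by -0.66, while Hgf differed by 0.13. Long bone array 2 was the highest array for 10 of the 12 FGF genes and 12 of these 20. Without it the medians were -0.23 and -0.11, 4 and 6 genes were higher, and the differences were -0.27 for Fgf1, -0.27 for Pdgfra, -0.29 for Pdgfa and 0.05 for Hgf. Without long bone array 1 Hbegf differed by -0.20.

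**Figure D5:**
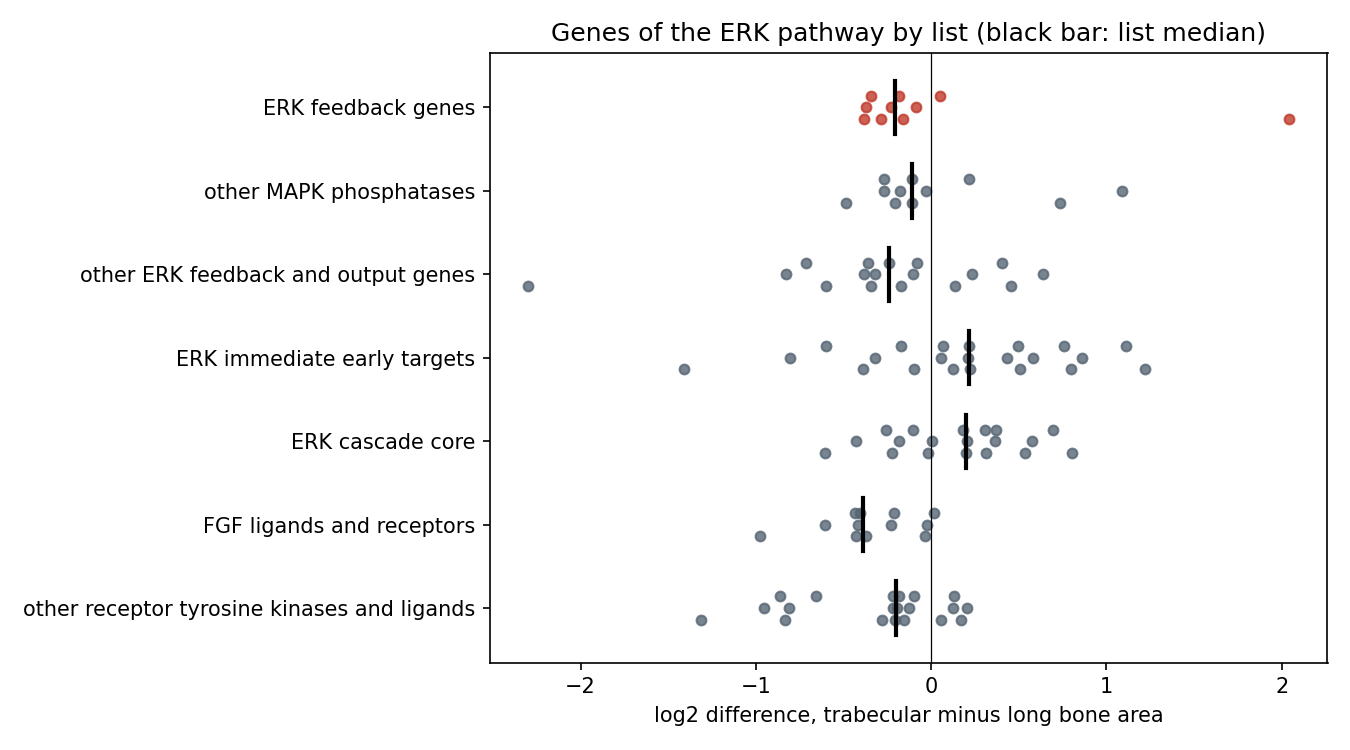
Log2 difference, trabecular minus long bone area (horizontal axis), of each gene of the ERK feedback set (red) and of the other ERK pathway lists (grey), with the list median as a black bar and points offset vertically for visibility. The medians lie at -0.21 for the feedback genes, -0.39 for FGF ligands and receptors, 0.20 for the cascade core and 0.21 for immediate early targets, and Dusp6 is the point at 2.04.

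The 5 genes nearest to Dusp6, by Euclidean distance between the log2 values of the 4 arrays, were Gpr65, a proton-sensing receptor of leukocytes (distance 0.65), Oasl2, an interferon-induced gene (0.66), Tmem120a (0.66), Tmem71 (0.68) and Clec7a, the Dectin-1 receptor of myeloid cells (0.72). For all 5 the trabecular arrays lay above the long bone ones, by 1.37 to 1.56 on average, which follows from how they were chosen. The distance of the other 9 feedback genes from Dusp6 ran from 2.04 for Etv5 to 2.81 for Spry1.

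Markers of other cells were read beside Dusp6. Of 8 macrophage and monocyte markers 4 were higher in the trabecular area and the other 4 lower, with medians of 0.36 and -0.21 on the trabecular arrays, against 0 and 0.11 on the long bone arrays. Cd68 differed by 0.78 and C1qb by -1.04. Of 9 neutrophil markers 5 were higher, with a median difference of 0.03, and Ltf differed by 0.40 and Elane by -0.23. Of 6 T and NK cell markers 4 were higher, with a median difference of 0.20. Among these Cd3d lay at 0.90 and 0.46 on the trabecular arrays, against -0.46 and -1.50 on the long bone arrays, and Cd3g differed by 0.28. The lower ones were Cd4, which differed by -0.23 with no overlap between areas, and Cd8a, by -0.01. Of 6 endothelial markers 4 were higher (median 0.04), Tie1 by 0.56, while Kdr differed by -0.31.

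Markers of bone and cartilage ran against Dusp6. All 7 measured osteoblast markers were lower in the trabecular area (median -1.75), Col1a2 by -2.46 and Sparc by -2.35, and all 9 chondrocyte markers (median -3.04), Comp by -5.18 and Col11a1 by -4.07. Of 6 smooth muscle and pericyte markers all 6 were lower (median -0.57), Cspg4 by -0.84 and Rgs5 by -0.81. The medians were -0.15 for 6 eosinophil, basophil and mast cell markers (Prg2 -0.60, Cpa3 -0.54), 0.01 for 6 erythroid markers (Alas2 -0.65, Hba-a1 0.18), -0.76 for 5 megakaryocyte markers (Pf4 -2.14, Ppbp -1.20) and -0.09 for 6 B cell markers (Vpreb1 -1.23, Ebf1 -0.96). The reticular stroma median was -1.14, with Adipoq at -2.07 and Cxcl12 at -1.43. Several of these medians moved with single arrays. Without long bone array 2 the median was -0.18 for reticular stroma (2 of 7 higher), -0.18 for smooth muscle and pericyte markers (2 of 6 higher), 0.09 for megakaryocyte markers (3 of 5 higher), 0.12 for B cell markers (4 of 6 higher), 0.03 for eosinophil, basophil and mast cell markers and 0.21 for erythroid markers. Pf4 was at -0.01 and 0.01 on the trabecular arrays, against -0.09 and 4.37 on the long bone arrays. The osteoblast and chondrocyte medians were -1.70 or lower with any 1 array left out, with all of these markers lower. Their signs could not turn, since none of these markers overlapped between the areas. With centred values no marker could be called absent, and the part of other cells in the values of Dusp6 was not tested.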

How the data were processed

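Amplified, biotin-labelled RNA of the sorted cells was read on Affymetrix arrays, per the labels' protocols. A human array is named in the design text, whereas probe set names and annotation are those of a mouse array. The deposited values are log2 expression: per the submitters' processing notes they come from RMA (no version), and the deposited table is centred, the median over the 4 arrays being 0 for each of its 45101 probe sets to within rounding. What software centred them, and the log base, is not given in the sources used here. Of these probe sets 64 controls were left out, and 34945 of the remaining 45037 had 1 gene in the platform annotation, 932 several and 9160 none. A gene was the mean of its probe sets.

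The trabecular area was set against the long bone area in limma 3.58.1 (R 4.3.3, lmFit and eBayes with 2 residual degrees of freedom), with Benjamini-Hochberg adjustment over all features. Group and replicate came from the titles. Levels were read from rounding steps in values of 0.001 or more, and the reading can be wrong for single probe sets. The members and lists were chosen with earlier results of these data known. Of the listed genes 25 were not analysed here. Named genes are the members, the sort antigens, up to 3 members per pathway list and direction with no overlap between areas, up to 2 per marker list, and the 5 nearest to Dusp6. For T and NK cells, Cd4 and Cd8a, which were lower, are named as well. The alternatives were quantile normalization, median centring, other probe set choices, other variance models, a replicate block and each array left out.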

Additional observations from a re-analysis of the deposited data

How the results depend on the processing

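The log2 difference of Dusp6 was above 0 under all alternatives run: it was 2.39 after quantile normalization and 1.74 to 2.35 with 1 array left out. With 1 array left out its sign could not turn, since its arrays did not overlap between the areas. The median of the members was -0.46 to 0.045 with 1 array left out, and the count of members higher in the trabecular area 1 to 5. The count with no overlap was 6 to 9 of 10, beside 5 with all arrays. No overlap is commoner against a lone array over the whole table too. Of 18193 genes, 7699 higher and 7349 lower did not overlap without long bone array 1 (9 members). Without trabecular array 2 (6 members) these were 7526 and 5208, and with all arrays 5446 and 3898. With 1 array left out, 0 probe sets were called in each case, and 0 to 1603 genes. The 1603, from the fit without long bone array 1 (8.81% of genes), included 1 of the 9 members other than Dusp6, Spry1; that limma fit assumes that the lone long bone array varies like the trabecular pair. Without long bone array 2, 1 gene was called, Prg4. With a trend in the prior variance 281 probe sets and 40 genes were called, with ordinary t statistics 1 probe set and 1 gene, and without probe sets ending in s_at, x_at or a_at 1 gene, Col9a1. Over bright probe sets 3 of 6 measured members did not overlap, beside 3683 higher and 1217 lower of 8699 genes. The median of all genes over bright probe sets was 0.20 in place of 0.03. Replicate numbers were tried as a replicate block. Deviations of arrays with the same number from their area means correlated at r = -0.181 over probe sets. This value cannot decide whether the arrays were paired, since each area has only 2 arrays and long bone array 2 stood apart. With the block 0 probe sets and 0 genes were called and every difference stayed as it was. Depth has no counterpart here, since centred values show no signal over background.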
